A study of Caenorhabditis elegans with 16 samples.

Results

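In the strain MLC1997 of Caenorhabditis elegans, the locus that normally makes miR-52 carries the hairpin of miR-51, and no other member of the miR-51 family is left in the genome. Its 2 small RNA libraries were compared with the 2 libraries of the wild type, N2 Bristol. The 4 libraries were chosen by their genotype labels from 16 libraries of 8 strains, and 340 of the 366 miRNA strands of the series had counts in at least 1 of them. MLC1997 carries nDf67 on chromosome IV, a deletion of mir-51 and mir-53, mir-52(luc143) on the same chromosome, in which CRISPR exchanged the precursor hairpin of mir-52 for that of mir-51, and nDf58 on chromosome X, a deletion of the cluster of mir-54, mir-55 and mir-56. luc143 is 1 allele, and miR-51 in this strain is made from 1 site, at which the surrounding sequence is that of mir-52. N2 has all 6 hairpins at their own sites. Each library held RNA from 50 untreated whole embryos that had reached the comma stage, when the embryo begins to elongate, and both libraries of a strain are described as biological duplicates. For some results, 2 other strains with 2 libraries each stand beside these. MLC1917 carries the same nDf67 and nDf58 deletions and the hairpin of mir-53 at the mir-52 site (luc140), and MLC1800, the family null strain, lacks all 6 members (nDf67, n4100 and nDf58) and keeps an extrachromosomal array, lucEx1057, with the miR-54 cluster.

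A miRNA is cut from a hairpin precursor as a duplex of a 5p and a 3p strand. One of them, the guide, is loaded into an Argonaute protein and directs it to messenger RNAs through its seed near the 5′ end, while the other, the passenger, is mostly degraded. The members of the miR-51 family share their seed, are relatives of miR-100 of other animals, and together are essential for embryonic development of the worm. The guide is the 5p strand of mir-51, mir-52 and mir-53, and the 3p strand of mir-54, mir-55 and mir-56. Which strand of a hairpin becomes the guide depends largely on the duplex itself, whereas how much precursor is made depends on the locus that is transcribed. The comparison asks how much of each strand the mir-52 locus gives when the hairpin is that of mir-51. MLC1997 differs from N2 in this exchange and also in the deletions nDf67 and nDf58. Effects of the exchange and of the deletions cannot be told apart.

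In the WBcel235 assembly with Ensembl release 115, the 100 bases of mir-51 (WBGene00003279) are annotated on chromosome IV at 11026013 to 11026112, minus strand, with the 3p strand at 11026035 to 11026056. The host site of the exchange, mir-52 (WBGene00003280), is on the plus strand of chromosome IV at 14034008 to 14034107, with the 3p strand at 14034065 to 14034086, and overlaps the noncoding RNA gene Y37A1B.335 of the minus strand. Levels are given as normalised UMIs. A UMI, a run of random adapter nucleotides, marks a molecule before amplification, and a normalised UMI is 1 UMI per 1000000 UMIs on miRNA strands outside mir-51 to mir-57, after TMM scaling over the same strands. These levels are relative to the other miRNAs of the embryos. A ratio between different strands also holds any difference in how readily each is joined to the adapters, which was not measured. In whole embryos, fewer cells that make a miRNA and less of it per cell cannot be told apart.

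The N2 libraries held 844718 and 229603 UMIs on miRNAs, and the MLC1997 libraries 65303 and 186938, within a range of 18481 to 844718 over the series. A count of 3 UMIs, taken as the limit that a count of 0 allows, stood for 5.03 and 20.5 normalised UMIs in the N2 libraries and for 66.2 and 19.4 in the MLC1997 libraries, so that MLC1997 replicate 1 resolved low strands least. These limits and the intervals below cover counting error alone. The adapter barcode differed from strain to strain, and its effect and that of the genotype cannot be told apart. The guides of the mir-35 family, which mark embryos, held 33.8% and 30.6% of all UMIs in MLC1997 and 37.3% and 35.3% in N2, and let-7-5p, a late larval miRNA, was at 110 and 621 normalised UMIs in MLC1997 and at 300.3 and 383 in N2.

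Both strands of the inserted hairpin rose. Strands were tested with the quasi-likelihood method of edgeR and called at a Benjamini-Hochberg adjusted p under 0.05. miR-51-5p, the guide, was at 70628 and 84808 normalised UMIs in the N2 libraries and at 449467 and 329682 in the MLC1997 libraries. It ranked 6th and 3rd among miRNA strands in N2 and was the most abundant strand in both MLC1997 libraries, where it held 31.2% (95% Wilson interval 30.9 to 31.6) and 27.3% (27.1 to 27.5) of all miRNA UMIs. The level in MLC1997 was 5.01 ± 1.27 times that in N2 (SD propagated from both strains, n = 2), and the libraries of the strains did not overlap (log2 fold change 2.33, standard error 0.34, edgeR adjusted p = 8.83e-05). miR-51-3p, the passenger, was at 1233 and 1149 normalised UMIs in N2 and at 9220 and 6296 in MLC1997, again without overlap. Its level was 6.51 ± 1.77 times that in N2 (log2 fold change 2.70, standard error 0.35, edgeR adjusted p = 0.000226). With each of the 4 libraries left out in turn, the log2 fold change ranged from 2.08 to 2.53 for miR-51-5p and from 2.40 to 2.95 for miR-51-3p, and both strands were called each time.

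**Figure D1:**
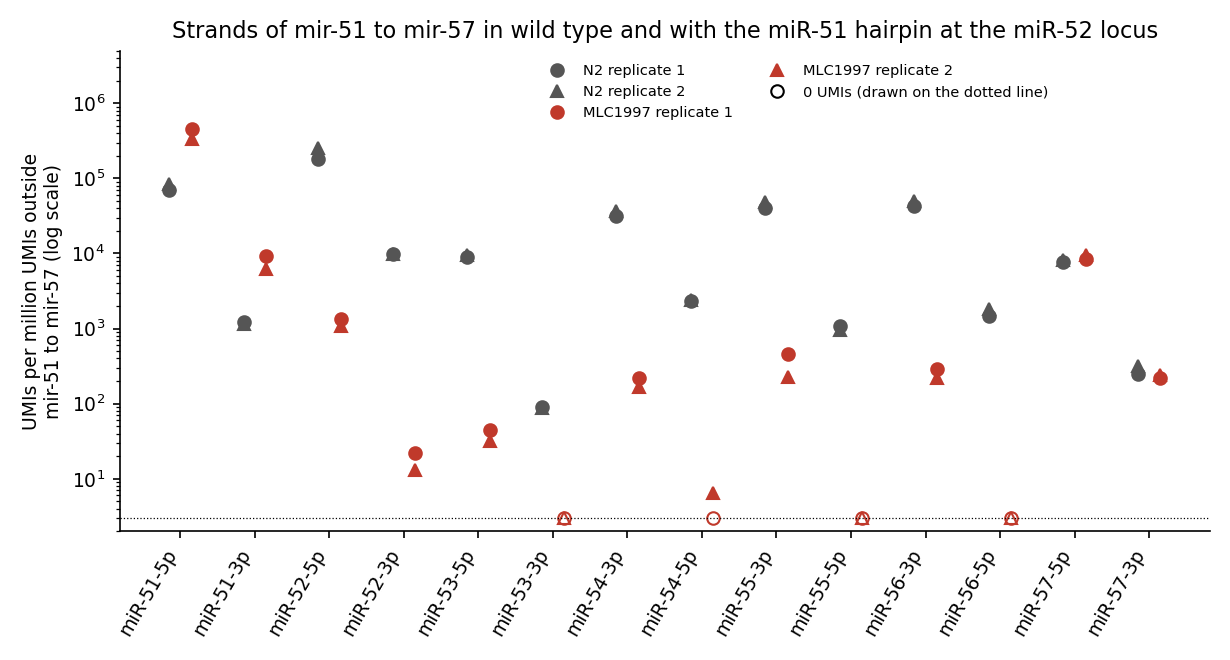
Levels of the 5p and 3p strands of 7 hairpins, mir-51 to mir-57, in each library in normalised UMIs on a log axis, with N2 in grey, MLC1997 in red and replicates 1 and 2 as circles and triangles; guides stand before passengers, and open symbols on the dotted line are libraries with 0 UMIs. The red symbols of miR-51-5p (449467 and 329682) and miR-51-3p lie above the grey ones, those of mir-52 to mir-56 lie far below, and those of miR-57 lie close to N2.

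The other 5 members were nearly absent from MLC1997. All 12 strands of mir-51 to mir-56 passed the test, 2 of them higher and 10 lower than in N2, where 19 of the 162 strands tested were called (11.7%). miR-52-5p, the most abundant strand of both N2 libraries at 182884 and 253172 normalised UMIs, was at 1345 and 1094 in MLC1997, from 61 and 169 UMIs (log2 fold change -7.50, standard error 0.36, edgeR adjusted p = 4.22e-11). These UMIs were 0.0934% (95% Wilson interval 0.0727 to 0.12) and 0.0904% (0.0778 to 0.105) of all miRNA UMIs. miR-52-3p fell from 9971 and 9784 normalised UMIs to 22.1 and 12.9, which rest on 1 and 2 UMIs. Over both MLC1997 libraries this was 0.152% of the level in N2 (95% Poisson interval 0.0313 to 0.444).

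The guides of the deleted mir-53 and of the deleted cluster followed the same pattern. miR-53-5p was at 8997 and 9517 normalised UMIs in N2 and was counted with 2 and 5 UMIs in MLC1997. miR-54-3p fell from 31754 and 36852 normalised UMIs to 221 and 168, miR-55-3p from 40870 and 48906 to 463 and 226, and miR-56-3p from 43154 and 50171 to 287 and 220. The log2 fold changes of the 5 removed guides lay between -7.99 and -7.16, and each was called with every library left out in turn. Of the passengers, miR-54-5p had 0 and 1 UMIs in MLC1997, and none was counted in either library for miR-55-5p, miR-56-5p or miR-53-3p. Against 3 UMIs over both libraries, miR-55-5p was at least 68.3-fold lower than in N2, miR-56-5p at least 110-fold and miR-53-3p at least 5.98-fold, the last from a level of 90.6 and 88.9 normalised UMIs in N2.

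What was counted for the removed guides was small and alike in share. In the MLC1997 libraries they stood at 0.350% to 1.03% of their mean level in N2, on 2 to 169 UMIs each, and summed to 107 and 269 UMIs, against 1 and 3 UMIs for the 5 removed passengers together. Strains without a hairpin of mir-52 gave similar values. miR-52-5p was at 0.559% ± 0.0817 of its N2 mean in MLC1997, at 0.347% ± 0.0635 in MLC1917 and at 0.500% ± 0.202 in MLC1800 (SD, n = 2). The same held for the hairpin that MLC1997 carries. miR-51-5p, which neither MLC1917 nor MLC1800 can make, was at 0.216% ± 0.0938 and 0.549% ± 0.335 of its N2 mean there, and miR-51-3p had 0 UMIs in all 4 of those libraries. The source of these UMIs was not tested.

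With the mir-51 hairpin, the mir-52 locus had higher guide levels in every pair of libraries than with its own hairpin in N2. This is a difference that 2 libraries a strain cannot bring under 0.05. The strains also differ in the deletions and the guides in sequence, so the difference cannot be assigned to the hairpin exchange. miR-51-5p in MLC1997 averaged 389575 ± 84701 normalised UMIs and miR-52-5p in N2 218028 ± 49701 (SD, n = 2), a ratio of 1.79 ± 0.563. Each MLC1997 library held more miR-51-5p than each N2 library held miR-52-5p, in 4 of 4 pairs, with p = 0.33 in a two-sided exact permutation of libraries, the lowest value that this design can give. As a share of all miRNA UMIs, miR-51-5p at 31.2% and 27.3% stood against 12.9% and 16.1% for miR-52-5p. The passengers differed in the opposite direction. miR-51-3p averaged 7758 ± 2067 normalised UMIs in MLC1997 and miR-52-3p 9877 ± 132 in N2, a ratio of 0.785 ± 0.210, lower in 4 of 4 pairs (two-sided exact permutation, p = 0.33). For orientation, at their own loci in N2 miR-52-5p was 2.59 and 2.99 times as abundant as miR-51-5p, and miR-52-3p 8.09 and 8.52 times as abundant as miR-51-3p.

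Reads per UMI bear on the size of the first ratio. miR-51-5p had 1.51 and 1.81 reads per UMI in MLC1997, and miR-52-5p had 1.64 and 1.26 in N2. Counted in reads, the ratio of miR-51-5p to miR-52-5p was 1.52. It was 1.54 with the reads of each library divided by its median reads per UMI over strands with 10 to 1000 UMIs. Both values rest on read counts and are not separate checks. Counted in UMIs, dropping single libraries gave values from 1.51 to 2.13.

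The proportion of the strands stayed closer to that of mir-51 than to that of mir-52. In MLC1997 the mir-51 hairpin gave 48.8 and 52.4 UMIs of the 5p strand per UMI of the 3p strand. At its own locus in N2 it gave 57.3 and 73.8, and mir-52 gave 18.3 and 25.9 there. The mean ratio in MLC1997, 50.6 ± 2.55, was 0.771 ± 0.143 of that of mir-51 in N2, 65.6 ± 11.7, and 2.29 ± 0.563 times that of mir-52 in N2, 22.1 ± 5.33 (SD, n = 2). Neither comparison had overlapping libraries, and the two-sided exact permutation p was 0.33 for each, the lowest possible. The first difference was set beside those of unrelated hairpins. Of 27 hairpins outside mir-51 to mir-57 with at least 10 UMIs on each strand in each of the 4 libraries, 16 (59.3%) changed their strand ratio by at least as much as mir-51 did (-0.36 on the log2 scale), and in 12 (44.4%) the libraries of the strains did not overlap. The changes of these 27 ran from -2.25 for mir-62 to 1.15 for mir-86, with a median size of 0.39. Some of them rest on few UMIs. miR-250-5p had 13 UMIs in each MLC1997 library, against 418 and 973 of miR-51-3p. Counting error widens such changes, so the tally cannot show whether the change of mir-51 was ordinary. On the log2 scale, the replicates of mir-51 differed by 0.37 in N2 and by 0.10 in MLC1997. Within N2, where library effects are shared, the ratio of mir-51 was 2.97 ± 0.889 times that of mir-52.

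**Figure D2:**
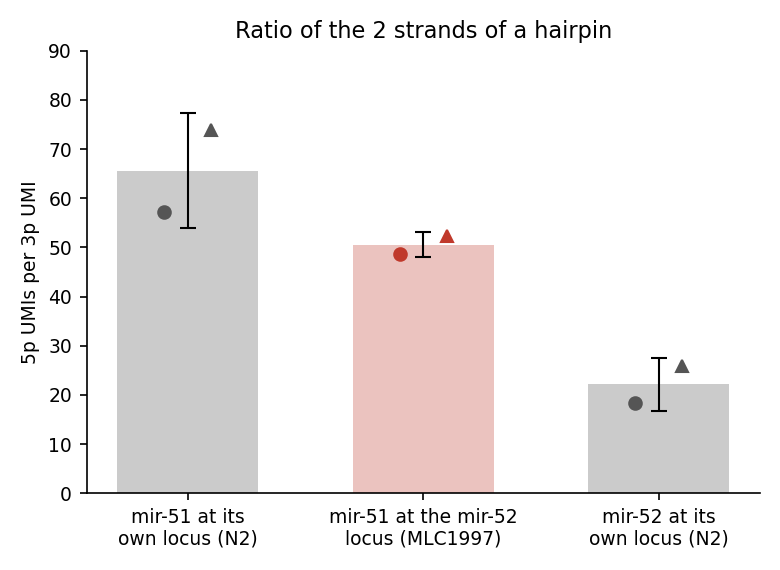
UMIs of the 5p strand per UMI of the 3p strand for mir-51 in N2, mir-51 in MLC1997 and mir-52 in N2; bars are means, error bars the SD of 2 libraries, circles replicate 1 and triangles replicate 2. The MLC1997 libraries (48.8 and 52.4) lie below those of mir-51 in N2 (57.3 and 73.8) and above those of mir-52 in N2 (18.3 and 25.9).

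The total of the 6 family guides did not differ between the strains beyond the spread of the libraries. It was 451828 and 331422 normalised UMIs in MLC1997 and 378287 and 483425 in N2, and the ratio of the means was 0.909 ± 0.252 (MLC1997 above N2 in 1 of 4 pairs, p = 0.667 by exact permutation, two-sided). The ratio passed 1 with each replicate 2 left out, at 1.04 without that of N2 and 1.05 without that of MLC1997, and was 1.03 without TMM scaling. As a share of all miRNA UMIs the guides made up 31.4% and 27.4% in MLC1997, 26.7% and 30.8% in N2, 24.0% and 17.5% in MLC1917, and 1.53% and 1.08% in MLC1800. The makeup of this total differed. miR-51-5p was 99.5% of the guide UMIs in both MLC1997 libraries and 18.7% and 17.5% in N2, where miR-52-5p held 48.3% and 52.4%.

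MLC1917, the strain with the mir-53 hairpin at the mir-52 site, allowed the same comparison with another exchange. miR-51-5p in MLC1997 was 1.65 ± 0.364 times as abundant as miR-53-5p in MLC1917, which was at 241973 and 229714 normalised UMIs, and the passenger miR-51-3p was 2.29 ± 1.29 times as abundant as miR-53-3p, at 2197 and 4585. For each, all 4 pairs had the higher value in MLC1997 (p = 0.33 by exact permutation, two-sided). The 5p to 3p ratio of mir-53 in MLC1917 was 110 and 50.1, and MLC1917 replicate 1 had only 40 UMIs of miR-53-3p. The ratio of mir-51 in MLC1997 was 0.631 ± 0.336 of it (two-sided exact permutation, p = 0.667).

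Outside mir-51 to mir-57, 7 of 148 strands were called between MLC1997 and N2 (4.73%), 4 higher and 3 lower, and 23 had an unadjusted p under 0.05. Their median log2 fold change was -0.02 over the 148, and 122 of them lay within 2-fold. Libraries of the strains did not overlap for 72 of the 148 (48.6%), 33 with MLC1997 higher (22.3%) and 39 with MLC1997 lower (26.4%). None of the 7 was among the abundant strands. miR-57, whose seed is not that of the family, was not called on either strand, with miR-57-5p at 7790 and 8191 normalised UMIs in N2 and 8492 and 9655 in MLC1997, and miR-57-3p at 250.0 and 315 in N2 and 221 and 239 in MLC1997.

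**Figure D3:**
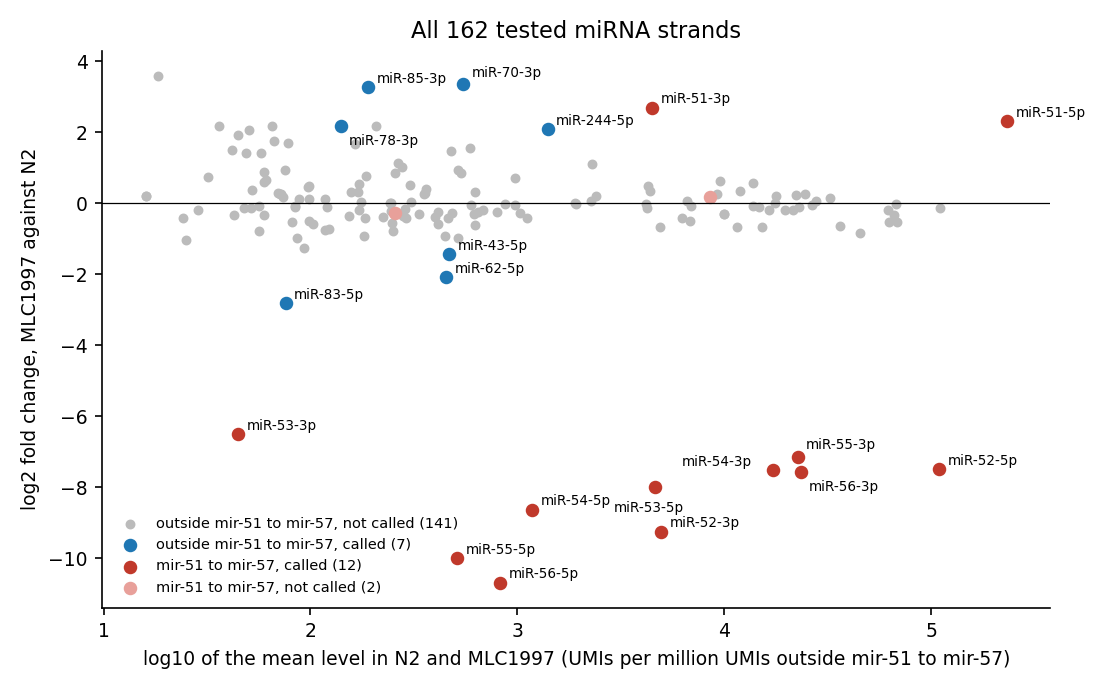
Log2 fold change of MLC1997 against N2 for the 162 tested strands, plotted against the log10 of their mean level; red are strands of mir-51 to mir-57, blue are the 7 called strands outside them, and grey and pale red are strands not called. The 10 removed strands of mir-52 to mir-56 lie below -6, where the fitted values of strands with 0 UMIs in MLC1997 are set by the model and are not measured folds, and most other strands lie near 0 (median -0.02).

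Of the strands that rose, miR-70-3p, from a hairpin within the transporter gene pmp-5, did so most clearly. It was at 97.3 and 95.7 normalised UMIs in N2 and at 860.2 and 1139 in MLC1997, without overlap (log2 fold change 3.37, standard error 0.59, edgeR adjusted p = 0.000494). It was called with each library left out in turn and in all 14 alternatives run. miR-244-5p was at 522 and 554 normalised UMIs in N2 and at 1544 and 2996 in MLC1997 (log2 fold change 2.10, standard error 0.49, adjusted p = 0.00774). miR-78-3p was at 62.1 and 34.2 in N2 and at 199 and 265 in MLC1997 (log2 fold change 2.18, standard error 0.56, adjusted p = 0.0128). miR-85-3p was at 38.6 and 34.2 in N2 and at 199 and 492 in MLC1997 (log2 fold change 3.28, standard error 1.01, adjusted p = 0.0445). The last of these values rest on few molecules, since both miR-78-3p and miR-85-3p had 5 UMIs in N2 replicate 2 and 9 in MLC1997 replicate 1.

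The strands that fell were passengers or low strands. miR-83-5p was at 148 and 130 normalised UMIs in N2 and was counted with 0 and 4 UMIs in MLC1997 (log2 fold change -2.81, standard error 0.69, edgeR adjusted p = 0.00995). miR-62-5p, the passenger of a hairpin within the gene ugt-50, fell from 882 and 561 normalised UMIs to 243 and 129 (log2 fold change -2.08, standard error 0.52, adjusted p = 0.0109). The guide of the same hairpin, miR-62-3p, was at 8511 and 8300 normalised UMIs in N2 and at 10675 and 9480 in MLC1997 and was not called, and mir-62 had the largest fall in strand ratio among the 27 hairpins. miR-43-5p, the passenger of a hairpin clustered with mir-42 and mir-44, fell from 624 and 773 normalised UMIs to 154 and 324 (log2 fold change -1.43, standard error 0.38, adjusted p = 0.0152). Its guide, miR-43-3p, was at 8677 and 5579 in N2 and at 6948 and 3773 in MLC1997.

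Below the threshold, the smallest p-values among higher strands were those of lin-4-5p, miR-235-3p, miR-252-5p, miR-86-5p and miR-230-3p, with edgeR adjusted p from 0.0517 to 0.114. miR-235-3p, of which 53 and 9 UMIs were counted in N2, was at 88.9 and 61.5 normalised UMIs there and at 265 and 239 in MLC1997, while miR-230-3p had 1 UMI in each N2 library. Among lower strands they were those of miR-42-3p, miR-80-5p, miR-44-5p, miR-60-3p and miR-38-3p, with adjusted p from 0.0517 to 0.169. The passenger miR-80-5p was at 597 and 588 normalised UMIs in N2 and at 243 and 362 in MLC1997, and the guide miR-38-3p at 58334 and 58574 in N2 and at 33636 and 31715 in MLC1997.

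The number of calls depended on the libraries. Without N2 replicate 1, 2 strands outside mir-51 to mir-57 were called (miR-70-3p and miR-43-5p), without N2 replicate 2 there were 3, without MLC1997 replicate 2 there were 4 and without MLC1997 replicate 1 there were 9. Sizes moved as well. Without MLC1997 replicate 2 the log2 fold change was 2.39 for miR-85-3p, 1.52 for miR-244-5p, -1.58 for miR-62-5p and -2.16 for miR-43-5p, and without MLC1997 replicate 1 it was 3.69, 2.48, -2.48 and -1.10 for the same strands. For miR-83-5p it was -2.39 without MLC1997 replicate 1, and without replicate 2 the remaining library had 0 UMIs, so that no fold is given. miR-78-3p ranged from 1.91 without MLC1997 replicate 2 to 2.75 without N2 replicate 1, and miR-70-3p from 3.14 to 3.55. On simulated counts for this comparison, the test recovered 32.5% of strands changed 2-fold and 83.8% of those changed 4-fold. The simulation changed a larger share of strands than was called here, which favours recovery. A strand not called here may therefore still differ by 2-fold.

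**Figure D4:**
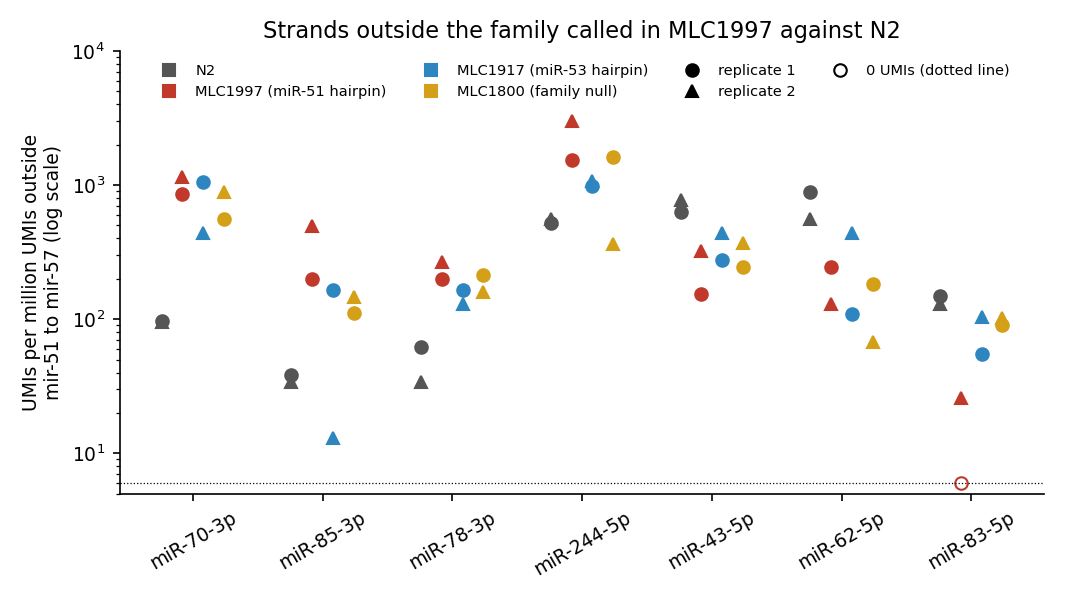
Levels of the 7 strands outside the family that were called between MLC1997 and N2 in normalised UMIs on a log axis, in N2 (grey), MLC1997 (red), MLC1917 (blue) and MLC1800 (yellow), with circles for replicate 1, triangles for replicate 2 and an open symbol for 0 UMIs. For miR-70-3p, miR-78-3p, miR-43-5p, miR-62-5p and miR-83-5p the libraries of all 3 mutant strains lie on the same side of both N2 libraries. In MLC1917 replicate 1, miR-78-3p, miR-62-5p and miR-83-5p rest on 3, 2 and 1 UMIs. The 7 strands were chosen by their difference from these N2 libraries.

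In MLC1917 and MLC1800, miR-70-3p, miR-78-3p, miR-43-5p, miR-62-5p and miR-83-5p lay on the same side of N2 as in MLC1997. miR-85-3p and miR-244-5p did so in some libraries only. In MLC1917 replicate 1, a count of 3 UMIs stood for 165 normalised UMIs. There miR-83-5p, miR-62-5p, miR-78-3p and miR-85-3p were counted with 1, 2, 3 and 3 UMIs, so counting error is large. These 7 strands were chosen by their difference from the same N2 libraries, so a deviation of N2 itself would place every strain on the same side. How many of the strands not called show this was not counted. miR-70-3p was at 1043 and 440 normalised UMIs in MLC1917 and at 557 and 882 in MLC1800. miR-62-5p was at 110 and 440 in MLC1917 and at 182 and 67.9 in MLC1800. miR-83-5p was at 54.9 and 104 in MLC1917 and at 91.1 and 102 in MLC1800, above both MLC1997 libraries. miR-78-3p was at 165 and 130 in MLC1917 and at 213 and 158 in MLC1800. miR-43-5p was at 275 and 440 in MLC1917 and at 243 and 368 in MLC1800. The values of the next strands spread more widely. miR-85-3p was at 165 and 13.0 in MLC1917, from 3 and 1 UMIs, which takes in the N2 level, and at 111 and 147 in MLC1800. miR-244-5p was at 989 and 1062 in MLC1917 and at 1620 and 362 in MLC1800, the last below both N2 libraries. Tested directly in the main fit, none of the 7 was called between MLC1997 and MLC1917 (edgeR adjusted p 0.276 to 0.870). The same held between MLC1997 and MLC1800 (0.151 to 0.946). These comparisons share the MLC1997 libraries with that against N2. Some of the differences were nevertheless of a size near that against N2. Against MLC1917 the log2 fold change was 2.92 for miR-85-3p and -2.19 for miR-83-5p, and against MLC1800 it was -2.28 for miR-83-5p. The values against MLC1917 rest on 3 and 1 UMIs of miR-85-3p and 1 and 8 of miR-83-5p in that strain. With no filter on low counts, miR-85-3p was called between MLC1997 and MLC1917. In MLC1917 against N2, miR-70-3p was called (log2 fold change 2.79, edgeR adjusted p = 0.00547) and the other 6 were not. There miR-85-3p was at a log2 fold change of 0.35 (edgeR adjusted p = 0.940). That comparison uses the N2 libraries by which the 7 were chosen.

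Against MLC1917, 5 of the 162 strands were called (3.09%), and 1 of them lay outside mir-51 to mir-57 (0.676% of 148). The 4 others were the strands of the exchanged hairpins, with miR-51-5p at 220 and 117 normalised UMIs in MLC1917 and miR-53-5p at 44.1 and 32.4 in MLC1997. The remaining strand was miR-60-3p, the guide of an intestinal miRNA, which was at 5404 and 5934 normalised UMIs in MLC1997 and at 11149 and 10568 in MLC1917 (log2 fold change -0.93, standard error 0.21, edgeR adjusted p = 0.0141). In N2 it was at 7296 and 8697, between both. This call was lost without either MLC1997 library, without MLC1917 replicate 1, with the 4 libraries fitted alone and with no filter on low counts.

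Against MLC1800, 6 of the 162 strands were called (3.7%), and none of the 148 outside mir-51 to mir-57 (0%) in edgeR's test, where 13 had an unadjusted p under 0.05. DESeq2 called 1, miR-42-3p. The edgeR test also called 1 without TMM scaling, miR-124-5p, and 1 with UMIs counted in full, miR-5552-3p. In the main fit, the called strands were both strands of mir-51, higher in MLC1997, and the 3 guides of the cluster with the passenger miR-55-5p, lower in MLC1997. Those guides were at 2262 to 5982 normalised UMIs in MLC1800, whose array carries the cluster, and at 168 to 463 in MLC1997.

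In 6 lists of other miRNAs, 0 of the 31 members tested were called against N2 by edgeR, where 4.73% of the 148 strands were called, a share at which few calls would fall among 31 strands. Of the 31, 5 had an unadjusted p under 0.05, and DESeq2 called 1, miR-42-3p. The 8 guides of the mir-35 family, the other essential family of the embryo, had a median log2 fold change of -0.43, against -0.02 over the 148 strands. The libraries did not overlap for 5 of the 8, all lower in MLC1997, against 26.4% of the 148 strands that were lower without overlap. Of these, miR-42-3p came closest to the threshold, at 43511 and 44722 normalised UMIs in N2 and 29688 and 27296 in MLC1997 (log2 fold change -0.63, standard error 0.20, edgeR adjusted p = 0.0517), while miR-35-3p was at 107455 and 123547 in N2 and 118046 and 92467 in MLC1997. The 8 guides summed to 529307 and 554812 normalised UMIs in N2 and to 486919 and 370088 in MLC1997, so that the lower total came mostly from MLC1997 replicate 2. Among the 10 most abundant strands outside mir-51 to mir-57 in N2, of which 8 are these guides, none was called, and the log2 fold changes ran from -0.84 to 0.15.

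Heterochronic miRNAs, which time larval transitions, had a positive median at low levels. The 6 of the list (let-7-5p, miR-48-5p, miR-84-5p, miR-241-5p, lin-4-5p and miR-237-5p) had a median log2 fold change of 1.75, and 3 of them did not overlap, all higher in MLC1997, where 22.3% of the 148 strands were higher without overlap. lin-4-5p, the regulator of the first larval transition, was at 104 and 41.0 normalised UMIs in N2 and at 221 and 466 in MLC1997 (log2 fold change 2.18, standard error 0.70, edgeR adjusted p = 0.0517). miR-48-5p, a let-7 relative, was at 362 and 246 in N2 and at 485 and 1268 in MLC1997 (adjusted p = 0.276). The sum of the 6 was 844 and 725 normalised UMIs in N2 and 926 and 2718 in MLC1997, so that replicate 2 stood apart from the other 3 libraries. In the direct comparison with MLC1917 the median of the list was -0.36, and with MLC1800 it was 0.32, with no call.

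Strands that mark tissues had a negative median. The 6 of the list had a median log2 fold change of -0.58, and 5 did not overlap, all lower in MLC1997, where 26.4% of the 148 strands were lower without overlap. miR-1-3p, made in muscle, was at 17995 and 19493 normalised UMIs in N2 and at 5713 and 17634 in MLC1997 (adjusted p = 0.376), and without MLC1997 replicate 2 it was called. miR-124-3p of ciliated sensory neurons was at 6967 and 5012 in N2 and at 4103 and 3436 in MLC1997 (adjusted p = 0.291). miR-79-3p of the epidermis was at 23968 and 21933 in N2 and at 21527 and 18398 in MLC1997, and miR-60-3p of the intestine was at 7296 and 8697 in N2 and at 5404 and 5934 in MLC1997 (adjusted p = 0.16). The neuronal lsy-6-3p had 2 and 6 UMIs in MLC1997. The glial member of the list, miR-228-3p, is the passenger of its hairpin and overlapped between strains, and the guide, miR-228-5p, was higher in MLC1997 without overlap, at 3515 and 3624 normalised UMIs in N2 and at 4323 and 5662 in MLC1997 (log2 fold change 0.49, edgeR adjusted p = 0.319). Whether the makeup or the stage of the embryos moved with these values was not tested.

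**Figure D5:**
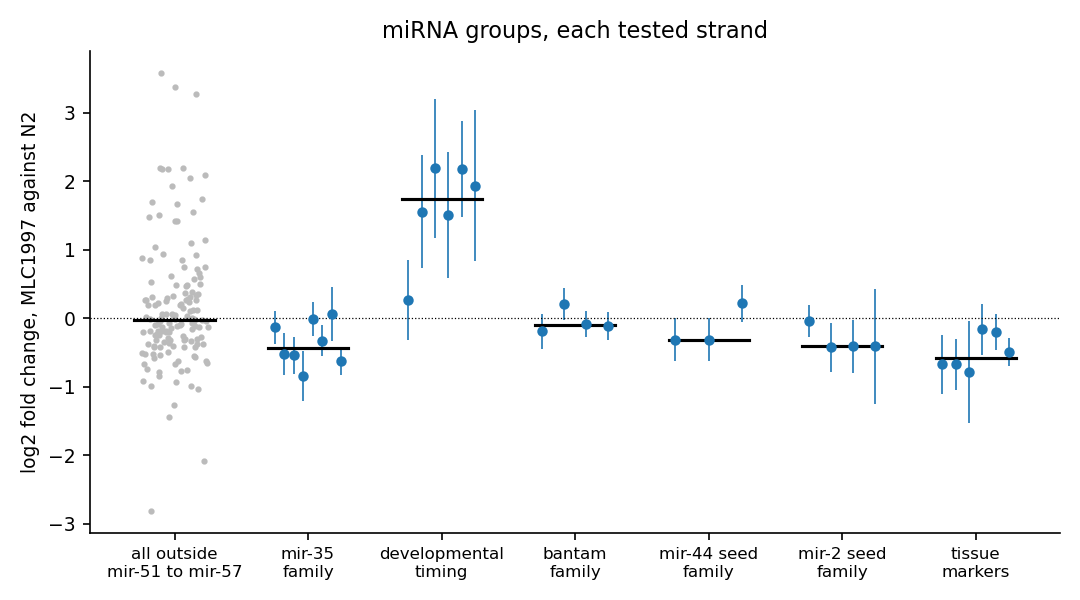
Log2 fold change of MLC1997 against N2 for each tested strand of 6 miRNA groups (blue, with standard errors derived from the edgeR test statistic) and for the 148 strands outside mir-51 to mir-57 (grey). Black lines are medians. The medians are -0.43 for the mir-35 family, -0.41 for the mir-2 seed family, 1.75 for developmental timing and -0.58 for tissue markers, against -0.02 for the 148.

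The remaining families had medians from -0.41 to -0.10, the lowest close to the -0.43 of the mir-35 family. The bantam family, whose worm members are miR-58a, miR-80, miR-81 and miR-82, had a median of -0.10, and 1 of the 4 was lower in MLC1997 without overlap. That strand, miR-58a-3p, was at 66497 and 64973 normalised UMIs in N2 and 64670 and 50488 in MLC1997. The mir-44 seed family had a median of -0.31 over the 3 of 4 members that passed the filter, 2 of them lower in MLC1997 without overlap. Its miR-44-3p and miR-45-3p share their reads, so that their values are not separate. The mir-2 seed family had a median of -0.41, and all 4 overlapped between strains. Of the 5 tested strands of the annotated miRNAs nearest to the deleted sites, 1 was called, where 4.73% of the 148 strands were. At the exchanged mir-52 site no neighbour was tested, since mir-265 had no strand in the counts and miR-798-3p did not pass the filter. miR-232-3p, made 31.7 kb from the deleted mir-51 and mir-53, was at 1371 and 1169 normalised UMIs in N2 and at 1147 and 783 in MLC1997 (adjusted p = 0.557), and the called miR-62-5p is made 452 kb from the mir-54 cluster.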

How the data were processed

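For each library, the authors deposited estimated counts of reads and UMIs per miRNA strand, in which molecules that fit several strands are divided among them, and a count of UMIs in full. Their pipeline quantified reads against WBcel235, per the labels; the aligner is not given in the sources used here, and the spike-in scale is not used here. Estimated UMI counts were rounded. Library sizes were the UMIs outside mir-51 to mir-57 times TMM factors. All 16 libraries and 8 strains entered 1 edgeR 4.0.16 quasi-likelihood fit (R 4.3.3) over 162 strands that reached 10 UMIs in 2 or more libraries, called at a Benjamini-Hochberg adjusted p under 0.05. Single values were compared by exact permutation. The edgeR p-values rest on a spread between duplicates that is estimated over all 8 strains. The standard errors are the absolute log2 fold change divided by the square root of the F statistic of that test. The permutation p-values count arrangements of the libraries. Named were all strands of mir-51 to mir-57, the 10 most abundant others, the called strands, up to 5 per direction below the threshold, and list members. Members and lists were chosen with earlier results of these data known. The replicates of a strain differed by more than sampling noise (chi-square per degree of freedom 20.9 in N2 and 23.3 in MLC1997). Alternatives covered scaling, reads, reads divided by the median reads per UMI of a library, filters, single libraries, a replicate block and DESeq2 1.42.0. The test was tested on simulated data.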

Additional observations from a re-analysis of the deposited data

How the results depend on the processing

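The changes of both mir-51 strands and of the 5 removed guides kept their direction and their call in every alternative in which they could be tested. Among the log2 fold changes, those of miR-51-5p ran from 2.08 to 2.53. The ratio of miR-51-5p in MLC1997 to miR-52-5p in N2 ran from 1.51 to 2.13, both with single libraries left out, where the 5p to 3p ratio of mir-51 against N2 ran from 0.685 to 0.883 and that against mir-52 from 1.95 to 2.76. The family guide total against N2 changed direction without TMM (1.03) and with single libraries left out (0.769 to 1.05), and the cause was not tested. With no filter on low counts, 30 strands were called against N2 (16 higher, 14 lower) in place of 19, of which 18 in place of 7 lay outside mir-51 to mir-57. That count was 11 without TMM (8 higher, 3 lower, with the median of all these strands at 0.16 in place of -0.02), 11 with the 4 libraries fitted alone, 10 with DESeq2 (4 higher, 6 lower) and 5 with reads (3 higher, 2 lower). With single libraries left out, 13 to 21 strands were called against N2, 4 to 5 against MLC1917 and 5 to 8 against MLC1800. The same replicate numbers do not pair the libraries (correlation of deviations 0.00707), and with the replicate number as a block 21 strands were called (7 higher, 14 lower), lin-4-5p and miR-80-5p among them. Depth limits low strands, above all in MLC1917 replicate 1 and, among the N2 and MLC1997 libraries, in MLC1997 replicate 1.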
